A study of Mus musculus with 48 samples.

Results

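The 9 genes described here encode the channels, pumps and exchanger that move calcium into and out of the endoplasmic reticulum and across the plasma membrane of astrocytes, and a sensor of the calcium store: Itpr1, Itpr2, Itpr3, Stim1, Orai1, Atp2a2, Atp2b1, Atp2b4 and Slc8a1. They were matched by symbol to their Ensembl identifiers, and all 9 were found among the 47643 genes counted. Counts came from TRAP (translating ribosome affinity purification), in which an antibody to green fluorescent protein (GFP) pulls down tagged ribosomes with the RNA bound to them. Each animal carried the transgene Tg(Aldh1l1-eGFP/Rpl10a) JD130Htz, in which regulatory sequence of Aldh1l1, a gene active in astrocytes, drives a GFP-tagged ribosomal protein. Both groups came from the dorsal hippocampus of the same 3 mice and differed in the cell part that was purified: whole astrocytes (Astro) or perisynaptic astrocytic processes (PAP), the fine branches that lie next to synapses. No treatment or further allele was given for either group, and the age of the mice and the way the processes were isolated are not given in the sources used here. The 8 technical replicates of each animal in each compartment were summed, so that n = 3 libraries per group.

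Calcium signals in astrocytes start largely from the endoplasmic reticulum. Receptors coupled to Gq proteins activate phospholipase C, which makes inositol trisphosphate (IP3), and IP3 opens IP3 receptors in the reticulum membrane so that stored calcium flows into the cytosol. A falling store is sensed by STIM proteins, which open ORAI channels in the plasma membrane, while SERCA pumps refill the store and plasma membrane calcium pumps and sodium-calcium exchangers carry calcium out of the cell. The type 2 receptor is best known among the IP3 receptors for calcium signals of astrocytes.

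The reading frames of these families are alike where the protein does its work, and the stretches below show how far reads from family members can still be told apart. The first set of sequences covers the codons for the pore selectivity filter of the IP3 receptors and the residues on both sides of it, and the second set covers the codons around the aspartate that is phosphorylated in each transport cycle, in both plasma membrane pumps. Each is 63 bases long, is taken from GENCODE M21 transcripts on GRCm38 and is written 5′ to 3′ on the coding strand. Capitals mark bases that differ among the genes of a set.
Itpr1: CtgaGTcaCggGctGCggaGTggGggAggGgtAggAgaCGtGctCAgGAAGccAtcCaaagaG
Itpr2: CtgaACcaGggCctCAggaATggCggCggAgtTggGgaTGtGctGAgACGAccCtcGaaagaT
Itpr3: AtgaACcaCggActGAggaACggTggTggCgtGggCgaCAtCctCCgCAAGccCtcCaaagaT
Atp2b1: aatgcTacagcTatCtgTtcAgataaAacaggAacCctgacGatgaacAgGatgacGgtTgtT
Atp2b4: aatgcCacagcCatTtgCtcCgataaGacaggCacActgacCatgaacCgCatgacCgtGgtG
The receptor stretches lie at chr6:108518767-108518829 on the plus strand in exon 58 of 62 (Itpr1), chr6:146158887-146158949 on the minus strand in exon 52 of 56 (Itpr2) and chr17:27118610-27118672 on the plus strand in exon 54 of 58 (Itpr3). The pump stretches lie at chr10:98999796-98999858 on the plus strand in exon 10 of 21 (Atp2b1) and chr1:133731786-133731848 on the minus strand in exon 10 of 21 (Atp2b4). Of the 63 bases, 37 were the same in all 3 receptors and 49 in both pumps. Pairs of receptors were identical at 66.7% to 71.4% of the positions, and the pair of pumps at 77.8%. Over the whole transcripts no run of 50 bases was shared between any of the 9 genes. The share of 50-base runs found in some other gene was highest for Atp2a2 (3.933%) and was 0% for Stim1 and Orai1.

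Pooled libraries held 18707844 to 20293538 counts in Astro and 1829962 to 2980984 in PAP, so depth and compartment cannot be told apart at full depth, and 3 counts corresponded to 0.152 to 0.176 in Astro and 0.991 to 1.55 in PAP in CPM, the unit used below for levels, which divides counts by the library size after TMM scaling. Libraries differed far more in PAP, with a biological coefficient of variation of 1.61, than in Astro, where it was 0.335. With 1 library per animal and compartment, differences between animals and between preparations cannot be told apart. At equal depth, 2101 genes ranged from at most 3 counts in 1 PAP library to at least 100 in a different one, and 0 genes did so in Astro. Summed levels of 12 astrocyte markers were 17700 to 25600 CPM in Astro and 3220 to 11900 CPM in PAP, and 5 of the 12 fell. Summed levels of 13 neuronal markers were 1120 to 1800 CPM in Astro and 539 to 1530 CPM in PAP, with 1 higher (Syt1) and 1 lower (Snap25), and none of 10 oligodendrocyte markers, with sums of 814 to 889 CPM in Astro and 535 to 1070 CPM in PAP, passed the test. Microglial markers summed to 44.5 to 96.6 CPM in Astro and 32.0 to 78.6 CPM in PAP, and endothelial and mural markers to 27.0 to 50.8 and 16.0 to 43.0 CPM. Of 8 tested microglial markers 3 fell (Cx3cr1, P2ry12 and Tmem119), and of 5 tested endothelial and mural markers 1 fell (Pdgfrb), each at 0 in all PAP libraries. Against the highest PAP floor they were at least 1.46-fold, 7.89-fold, 1.5-fold and 14.0-fold lower, in that order. Cx3cr1 and Tmem119 were thus near that floor in Astro. Markers of B-lineage cells summed to 122 to 144 CPM in Astro and 2960 to 6330 CPM in PAP. Of the 9 listed, 7 were tested, 5 rose and 1 fell, while Cd79a and Ighm were at 0 in all PAP libraries. Over all genes tested, 5.92% rose and 15.4% fell. With the animal as a block, 3 B-lineage markers were called higher and no other marker of these lists passed. The libraries are ribosome pulldowns, so marker levels do not count cells, and what lies behind their differences was not tested.

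Of the 14618 genes that passed the filter on low counts, 3115 (21.3%) had an adjusted p under 0.05 in the edgeR quasi-likelihood test, and 5.92% of all genes tested were higher and 15.4% lower in PAP. Of the 9 calcium genes, 8 passed the filter and 2 passed the test: Itpr2 was higher in PAP and Orai1 was lower. A share of 25.0% is close to the background of 21.3%. With the animal as a block, 0 of the 8 passed, against 0.91% of all genes, while without the block 3 of the 8 had an unadjusted p under 0.05, against 30.9% of all genes, and DESeq2 called 4 of the 8, against 35.2%. With any 1 of the 3 Astro libraries left out 0 members passed, and calls over all genes were 115 to 140. The libraries of the groups did not overlap for 3 genes that were higher in PAP (Itpr1, Itpr2 and Itpr3), against 10.9% of all genes, and for 1 that was lower (Orai1), against 35.1% (46.0% in either direction). The median log2 fold change of the 8 genes was -0.44, and it was -0.53 over all genes tested, or -0.44 over all genes with those at or under 3 counts throughout a group set to their bound. The medians with the animal as a block were -0.48 for the 8 genes and -1.63 over all genes tested.

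**Figure D1:**
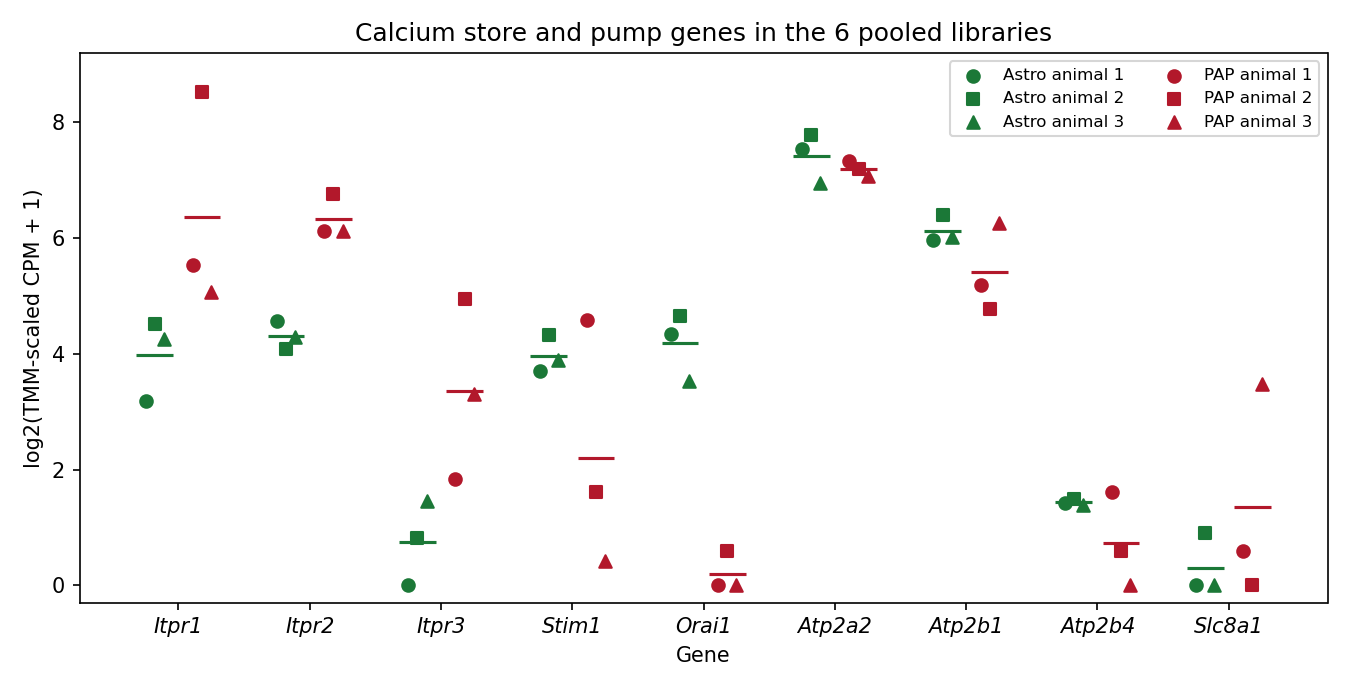
Levels of the 9 genes in the 6 pooled libraries, as log2 of TMM-scaled CPM plus 1. Points are libraries (shape gives the animal, colour the compartment) and lines are group means on that scale; the 3 IP3 receptor genes lie higher in every PAP library than in any Astro library, Orai1 lies near 0 in PAP, and Atp2a2 overlaps between the groups.

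All 3 IP3 receptor genes had higher levels in each PAP library than in any Astro library, but only Itpr2 passed the test over all genes. Itpr2 (ENSMUSG00000030287, chr6:146108299-146502223, minus strand) encodes the type 2 receptor. Its level was 22.6, 15.9 and 18.6 CPM in Astro of animals 1 to 3 and 68.9, 108 and 68.4 CPM in PAP. The groups were well apart, and the highest PAP library was that of animal 2. The means were 19.0 ± 3.35 CPM (SD, n = 3) and 81.7 ± 22.6 CPM (SD, n = 3), and the log2 fold change was 2.10 ± 0.56 (SE; 95% interval 0.74 to 3.46; adjusted p = 0.0427). With the animal as a block the value was 2.08 and the adjusted p was 0.262. The PAP values rested on 135, 209 and 207 counts, and the technical replicates of these libraries held 13 to 22, 16 to 31 and 16 to 33 counts each. Technical replicates 1 to 4 gave 73.9, 110 and 70.7 CPM without TMM factors and replicates 5 to 8 gave 73.6, 118 and 68.0. At equal depth the counts were 32, 17 and 39 in Astro and 135, 209 and 127 in PAP. The log2 fold change of Itpr2 was 1.38 after correction for GC content and length (adjusted p = 0.139), and it did not pass with any 1 of the 3 Astro libraries left out (adjusted p from 0.176 to 0.205). Over all 19 alternatives it kept its direction, with adjusted p from 6.69e-07 to 0.414.

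Itpr1 (ENSMUSG00000030102, chr6:108213096-108551109, plus strand), the type 1 receptor known above all from neurons, was at 8.06, 21.8 and 18.0 CPM in Astro and at 45.4, 366 and 32.4 CPM in PAP. The PAP library of animal 2 stood far above the others, and its 710 counts were spread over all 8 technical replicates at 70 to 104 each. The means were 16.0 ± 7.09 CPM and 148 ± 189 CPM (SD, n = 3), and the log2 fold change of 3.21 ± 1.11 (SE; 95% interval 0.54 to 5.88) did not pass the test (adjusted p = 0.0964, and 0.206 with the animal as a block). Without the PAP library of animal 2 the log2 fold change of Itpr1 was 1.23, and without that of animal 3 it was 3.62 with an adjusted p of 0.0493.

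Itpr3 (ENSMUSG00000042644, chr17:27057304-27122223, plus strand), the type 3 receptor, was the least abundant of the family. It was at 0, 0.763 and 1.73 CPM in Astro (0, 13 and 34 counts) and at 2.55, 29.9 and 8.92 CPM in PAP (5, 58 and 27 counts). The groups did not overlap, but the spread in PAP was as large as the mean, 13.8 ± 14.3 CPM (SD, n = 3) against 0.83 ± 0.865 CPM in Astro. Its log2 fold change was 4.03 ± 1.80 (SE; 95% interval -0.31 to 8.38; adjusted p = 0.193), and it was 2.73 without the PAP library of animal 2 and 5.15 without the Astro library of animal 3. Strand-specific counting is not given in the sources used here, and 233 of the 9019 exonic bases of Itpr3 lie opposite Itpr3os, 108 and 181 of the 18319 of Itpr1 opposite Gm44040 and Gm44101, and 83 of Atp2a2 opposite Gm43361. Reads within these bases cannot be assigned to a strand.

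Per kb of exon, the 3 receptor genes together summed to 1.96, 2.35 and 2.43 CPM in Astro and to 7.42, 30.6 and 7.38 CPM in PAP. The share of Itpr2 in the family, per kb, was 77.6%, 45.8% and 51.6% in Astro and 62.8%, 23.8% and 62.6% in PAP, and that of Itpr1 was 22.4%, 50.6% and 40.5% against 33.4%, 65.3% and 24.0%. Both genes' shares overlapped between the groups. Itpr3 held 3.83% ± 3.94 of the family in Astro and 9.36% ± 4.97 in PAP (SD, n = 3). By animal its share was 0%, 3.6% and 7.87% in Astro and 3.81%, 10.8% and 13.4% in PAP. It was higher in PAP within each animal, on few counts, although the ranges overlapped. As shares of counts in PAP, Itpr1 ranged from 29.5% (95% Wilson interval 24.9 to 34.6) in animal 3 to 72.7% (69.8 to 75.4) in animal 2, with 1 library behind each value. The sources used here name no molecular identifiers, so intervals and floors cover counting error only. The sums of B-lineage markers in PAP of animals 1 to 3 were 6330, 3710 and 2960 CPM, those of neuronal markers were 539, 1530 and 1090 CPM, and those of oligodendrocyte markers were 535, 1070 and 1030 CPM. The library of animal 2, which was high in Itpr1, was thus the highest of the PAP libraries in neuronal and oligodendrocyte markers but not in B-lineage markers. The part of these cells in the IP3 receptor values was not tested.

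**Figure D2:**
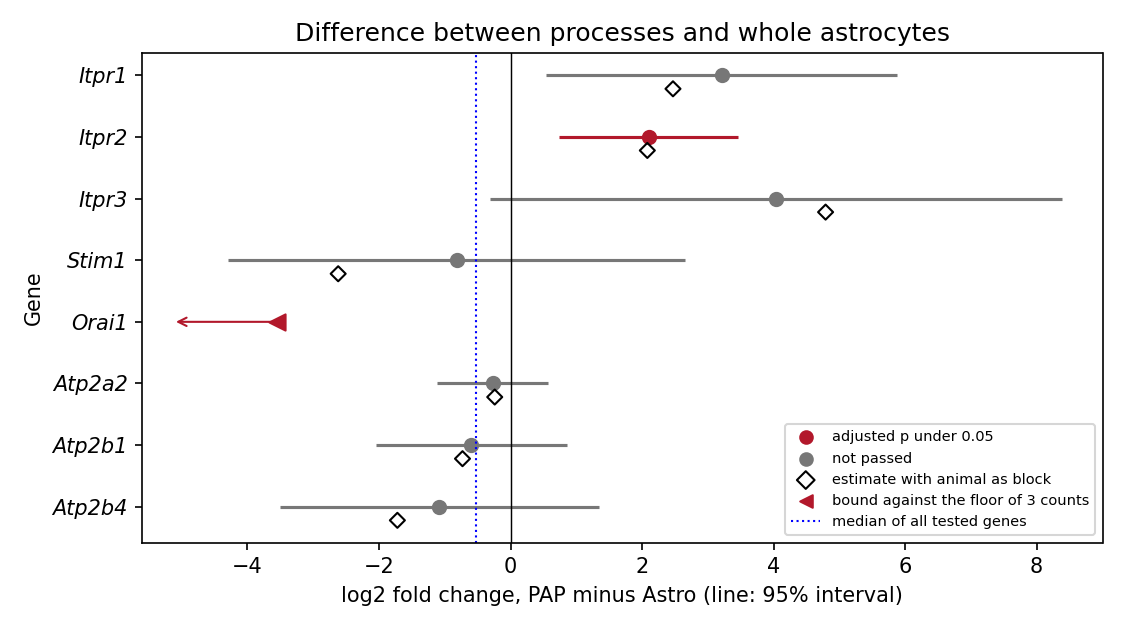
Log2 fold change, PAP minus Astro, of the 8 tested genes, with 95% intervals from the edgeR fit. Open diamonds give the estimate with the animal as a block. The dotted line is the median of all tested genes without the block (-0.53), and with the block that median was -1.63. For Orai1 the triangle is a bound against the floor of 3 counts and the arrow shows that the value lies at or below it; only Itpr2 and Orai1 passed the test.

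Of the genes of store-operated entry, the channel Orai1 fell in PAP and the sensor Stim1 did not pass the test. Orai1 (ENSMUSG00000049686, chr5:123015074-123030456, plus strand), the plasma membrane channel opened by store depletion, was at 19.4, 24.3 and 10.6 CPM in Astro (362, 414 and 209 counts). In PAP the 3 libraries held 0, 1 and 0 counts. With a mean of 18.1 ± 6.94 CPM in Astro (SD, n = 3) against the highest PAP floor of 1.55 CPM, Orai1 was at least 11.7-fold lower in PAP (adjusted p = 0.025). With the animal as a block the adjusted p was 0.206, it was 0.0947 to 0.101 with any 1 of the 3 Astro libraries left out, and over the 19 alternatives it ran from 6.96e-06 to 0.208. At equal depth Orai1 still held 31, 37 and 25 counts in Astro against 0, 1 and 0. In the whole data, 1952 of the 2250 genes that were lower in PAP were likewise at or under 3 counts in all PAP libraries.

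The other ORAI channels were detected in all 3 PAP libraries. Orai2 was at 20.5 ± 5.45 CPM in Astro and 47.2 ± 31.9 CPM in PAP, and Orai3 at 45.0 ± 4.01 and 56.2 ± 9.40 CPM (SD, n = 3); neither passed the test (adjusted p = 0.371 and 0.76). Orai1 held 27.2%, 31.2% and 14.6% of the family per kb in Astro and 0%, 0.495% and 0% in PAP. With 0 of 152 and 0 of 247 ORAI counts in the PAP libraries of animals 1 and 3, its share of counts could be up to 1.97% and 1.21%. The summed ORAI level per kb was 31.2 to 34.0 CPM in Astro and 27.9 to 45.3 CPM in PAP, so the family total overlapped between the groups.

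Stim1 (ENSMUSG00000030987, chr7:102267806-102437319, plus strand) encodes the sensor of store calcium. It held 224, 323 and 271 counts in Astro and 45, 4 and 1 in PAP. Its level was 14.9 ± 3.60 CPM in Astro (SD, n = 3), at most 19.0 CPM, and 23.0, 2.06 and 0.33 CPM in PAP. The PAP library of animal 1 lay above all Astro libraries and those of animals 2 and 3 lay below them. The log2 fold change of Stim1 was -0.82 ± 1.44 (SE; 95% interval -4.30 to 2.65; adjusted p = 0.782), and it was -3.74 without the PAP library of animal 1 (adjusted p = 0.0518). Its relative Stim2 was also uneven in PAP, at 9.18, 1.03 and 61.5 CPM, against 18.7 to 33.0 CPM in Astro (adjusted p = 0.983).

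Atp2a2 (ENSMUSG00000029467, chr5:122453513-122502225, minus strand) encodes SERCA2, the pump that refills the reticulum, and did not pass the test. It was at 186, 219 and 123 CPM in Astro and at 160, 145 and 133 CPM in PAP. The PAP values lay within the range of the Astro values. The log2 fold change was -0.27 ± 0.35 (SE; 95% interval -1.12 to 0.57; adjusted p = 0.691), and the interval includes both a modest fall and a modest rise. At equal depth Atp2a2 held 295, 356 and 231 counts in Astro and 313, 281 and 241 in PAP. Among the SERCA genes Atp2a2 held 98.0% to 99.1% of the level per kb in Astro. In PAP it held 71.4%, 99.6% and 49.4%. Atp2a3, a SERCA known from blood cells, was at 55.6, 0.515 and 118 CPM in PAP and at 1.13 to 3.87 CPM in Astro (log2 fold change 4.70; adjusted p = 0.116). The part of B-lineage cells in the Atp2a3 value was not tested.

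The plasma membrane pumps carry calcium out of the cell. Atp2b1 (ENSMUSG00000019943, chr10:98914406-99026143, plus strand) was at 61.8, 83.0 and 63.6 CPM in Astro and at 35.7, 26.3 and 75.7 CPM in PAP. The PAP libraries of animals 1 and 2 lay below all Astro libraries, while that of animal 3 lay among them. The log2 fold change of Atp2b1 was -0.60 ± 0.61 (SE; 95% interval -2.05 to 0.86; adjusted p = 0.603), and it was -1.23 without the PAP library of animal 3. Atp2b4 (ENSMUSG00000026463, chr1:133699457-133801041, minus strand) was low in both compartments, with 31, 31 and 32 counts in Astro and 4, 1 and 0 in PAP. Its levels of 1.67, 1.82 and 1.62 CPM in Astro and 2.04, 0.515 and 0 CPM in PAP are near the PAP floor, and no difference was detectable at this depth (log2 fold change -1.08 ± 1.01; adjusted p = 0.566). The log2 fold change of Atp2b4 was -2.96 without the PAP library of animal 1 (adjusted p = 0.128) and -0.47 without that of animal 3 (adjusted p = 0.678).

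Within the pump family, Atp2b1 held 49.3%, 47.2% and 46.4% of the level per kb in Astro and 30.2%, 6.8% and 44.4% in PAP, so all 3 PAP values lay below all Astro values. The difference of the means was -20.5 percentage points, and -10.3 without the PAP library of animal 2. Atp2b2, a pump known above all from neurons, took the other large share, 41.6% ± 7.62 in Astro and 72.1% ± 19.1 in PAP (SD, n = 3). Its level was 48.6 to 50.2 CPM in Astro and 66.3, 298 and 78.6 CPM in PAP (log2 fold change 1.58; adjusted p = 0.177). The neuronal marker sum was 539, 1530 and 1090 CPM in these PAP libraries and 1120, 1420 and 1800 CPM in Astro, and its part in the Atp2b2 value was not tested.

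Slc8a1 (ENSMUSG00000054640, chr17:81373105-81738377, minus strand), a sodium-calcium exchanger, did not pass the filter. It held 0, 15 and 0 counts in Astro and 1, 0 and 31 in PAP, so a single library of each compartment, of animal 2 in Astro and of animal 3 in PAP, carried nearly all of its reads. The level in that PAP library was 10.2 CPM, against 0.88 CPM in the Astro library.

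**Figure D3:**
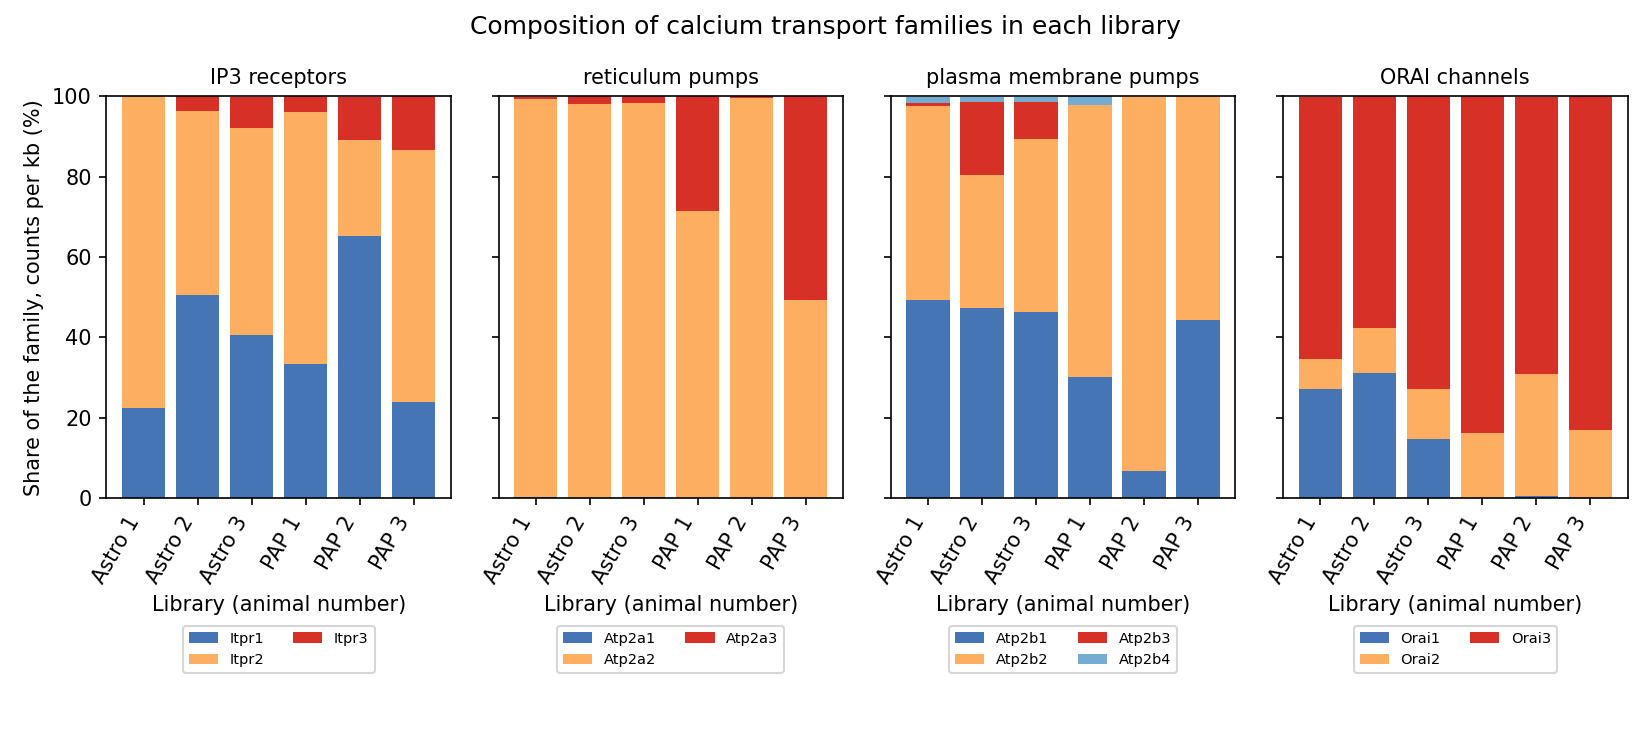
Share of each family member, from counts per kb of exon in percent of the family, in each of the 6 libraries, for IP3 receptors, reticulum pumps, plasma membrane pumps and ORAI channels. The Orai1 share is at most 0.495% in PAP, and the Itpr1 and Itpr2 shares overlap between the compartments. The Atp2b1 share is lower in each PAP library than in any Astro library, narrowly in animal 3 (44.4% against 46.4%).

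On the scale of CPM per kb of exon, which allows genes to be compared, Atp2a2 had the highest level in Astro, 29.0 ± 8.03 (SD, n = 3). It was followed by Orai1 at 7.89 ± 3.02, Atp2b1 at 4.57 ± 0.774, Stim1 at 1.44 ± 0.347, Itpr2 at 1.28 ± 0.226 and Itpr1 at 0.871 ± 0.387. Atp2b4 at 0.139 ± 0.00838, Itpr3 at 0.092 ± 0.0959 and Slc8a1 at 0.0156 ± 0.027 were lowest. The library values of Orai1 and Atp2b1, Stim1 and Itpr2, Itpr2 and Itpr1, Atp2b4 and Itpr3, and Itpr3 and Slc8a1 overlapped. Within each Astro library, however, Orai1 was above Atp2b1 (8.47 against 4.06, 10.6 against 5.46 and 4.62 against 4.18). The order of Stim1 and Itpr2, Itpr2 and Itpr1, and Atp2b4 and Itpr3 differed between libraries. Itpr3 and Slc8a1 were both at 0 in Astro of animal 1, and Itpr3 was higher in the other animals. In PAP Atp2a2 was again highest, at 24.0 ± 2.24 CPM per kb, followed by Itpr1 at 8.07 ± 10.3, Itpr2 at 5.52 ± 1.52 and Atp2b1 at 3.02 ± 1.72. The lower levels in PAP were those of Itpr3 at 1.53 ± 1.59, Stim1 at 0.815 ± 1.21, Slc8a1 at 0.191 ± 0.307, Orai1 at 0.0749 ± 0.13 and Atp2b4 at 0.0696 ± 0.0867, and each of these neighbours overlapped with the next. The values of Itpr3 and Stim1 also overlapped with those of Itpr1 and Atp2b1. The values of Atp2a2 in PAP (21.8 to 26.3 CPM per kb) did not overlap with those of Itpr1 (1.77 to 20.0), whereas Itpr1, Itpr2 and Atp2b1 overlapped with each other.

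Most of the 9 genes have long transcripts. Itpr1, Itpr2, Atp2b1 and Slc8a1 have 18319, 14802, 15218 and 18807 exonic bases and are longer than 96.9% to 98.7% of the genes tested, while Orai1, with 2295 bases, is longer than 23.2%. Long genes had a higher median fold change than genes of intermediate length. The median log2 fold change was -0.70 in the 4184 genes of 2000 to 4000 bases and -0.07 in the 1766 genes of at least 9000 bases, and the share of genes called lower was 18.3% and 9.57%. After correction for GC content and length the log2 fold change of Itpr1 went from 3.21 to 2.18 (adjusted p = 0.202), that of Itpr2 from 2.10 to 1.38 and that of Atp2b1 from -0.60 to -1.15 (adjusted p = 0.313). The adjusted p of Orai1 was 0.0253 after that correction.

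A wider list of 109 calcium genes was read from the same fit, in 9 groups by role. Of these, 88 were tested, 0 rose, against 5.92% of all genes, and 15 fell, a share of 17.0% that is close to the 15.4% over all genes. An unadjusted p under 0.05 was found for 30 of the 88, against 30.9% of all genes. DESeq2 called 5 higher and 26 lower, in all 35.2% of the list, the same share as over all genes (35.2%, with 11.5% higher and 23.6% lower). With the animal as a block 0 passed, as with any 1 of the 3 Astro libraries left out, and 12 of the 15 were at or under 3 counts in all PAP libraries. The median log2 fold change was -0.97, or -0.85 with genes at their bound, against -0.53 and -0.44 over all genes. The order turned with the animal as a block, where the medians were -1.46 for the list and -1.63 over all genes. The adjusted p of each lower call named below was 0.206 with the animal as a block.

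Of 18 tested genes that make or remove IP3, 6 fell (33.3%, against 15.4% of all genes, which is the background for each group below). Gna11, a G protein subunit that couples receptors to phospholipase C, fell from 152 ± 19.2 to 36.1 ± 1.49 CPM (SD, n = 3; log2 fold change -2.08 ± 0.40; adjusted p = 0.0208). The phospholipases Plcb3, Plcd1 and Plcd3 were at least 32.3-fold, 19.4-fold and 2.67-fold lower (adjusted p = 0.0238, 0.021 and 0.0208). Itpkc, a kinase that acts on IP3, and Inpp1, an inositol phosphate phosphatase, were at least 5.00-fold and 13.0-fold lower (adjusted p = 0.0208 and 0.0222). Impa1, with the highest mean of the group over both compartments, was at 194, 153 and 209 CPM in Astro and at 100, 0 and 70.4 CPM in PAP and did not pass (adjusted p = 0.526). The median log2 fold change of its 18 tested genes was -1.61, or -1.49 with bounds.

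Among other release channels and partners of IP3 receptors, 2 of 11 fell. Erlin1, a reticulum protein involved in IP3 receptor turnover, was at least 5.74-fold lower (adjusted p = 0.0238). Tpcn2, a lysosomal channel, passed the test (adjusted p = 0.027), but its 1.55 ± 0.80 CPM in Astro (SD, n = 3) were no higher than the PAP floor, so no fold is given. Ahcyl1, which encodes the IP3 receptor binding protein IRBIT, was by far the most abundant, at 2120 ± 215 CPM in Astro and 816 ± 466 CPM in PAP. Its log2 fold change of -1.38 ± 0.50 did not pass (adjusted p = 0.11), although the groups did not overlap. The ryanodine receptor Ryr2, another store release channel, was at 1.53, 4.12 and 82.9 CPM in PAP and at 1.62 to 3.76 CPM in Astro (adjusted p = 0.205), so 1 PAP library held nearly all of its PAP reads.

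For store-operated entry beyond Stim1 and Orai1, 0 of 11 tested genes passed. Saraf, which dampens this entry, was highest in the group at 390 ± 143 CPM in Astro and 128 ± 53.7 CPM in PAP (SD, n = 3; log2 fold change -1.61 ± 0.49; adjusted p = 0.0635). Of other entry channels, 2 of 8 fell: Trpc1 was at least 4.08-fold and P2rx7 at least 2.48-fold lower (adjusted p = 0.0359 and 0.0409). Without the Astro library of animal 1 the bound of Trpc1 was 1.98-fold. P2rx4, an ATP-gated channel, was at 16.6 ± 3.91 and 17.8 ± 22.9 CPM (adjusted p = 0.979).

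Of the other store pumps and their inhibitors, 2 of 5 fell. They were the small SERCA inhibitors Sln and Mrln, at 3.13 ± 0.761 and 1.95 ± 0.128 CPM in Astro and 0 counts in all PAP libraries, which gives at least 2.02-fold and 1.26-fold lower (adjusted p = 0.0208 each). Atp2c1, the Golgi calcium pump, was at 142 ± 69.2 and 243 ± 122 CPM (adjusted p = 0.413). Of 6 tested genes of the other plasma membrane pumps and their partners, 1 fell.

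Among sodium-calcium exchangers 1 of 5 fell. Slc24a3 was at least 11.1-fold lower (adjusted p = 0.0247), while Slc24a2 was at 13.0 ± 6.47 CPM in Astro and 52.6 ± 64.6 CPM in PAP (SD, n = 3; adjusted p = 0.414). Among genes of mitochondrial calcium uptake 1 of 11 fell. Mcur1, a regulator of the uniporter, went from 332 ± 55.5 to 62.5 ± 43.3 CPM (SD, n = 3; log2 fold change -2.40 ± 0.67; adjusted p = 0.0477). Smdt1, a subunit of the uniporter, was at 452 ± 26.5 and 236 ± 92.3 CPM (adjusted p = 0.112). None of 13 tested genes for calcium buffers of the store lumen passed, and Rcn2, with the highest mean over both compartments, was at 747 ± 200 and 423 ± 286 CPM (adjusted p = 0.397).

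**Figure D4:**
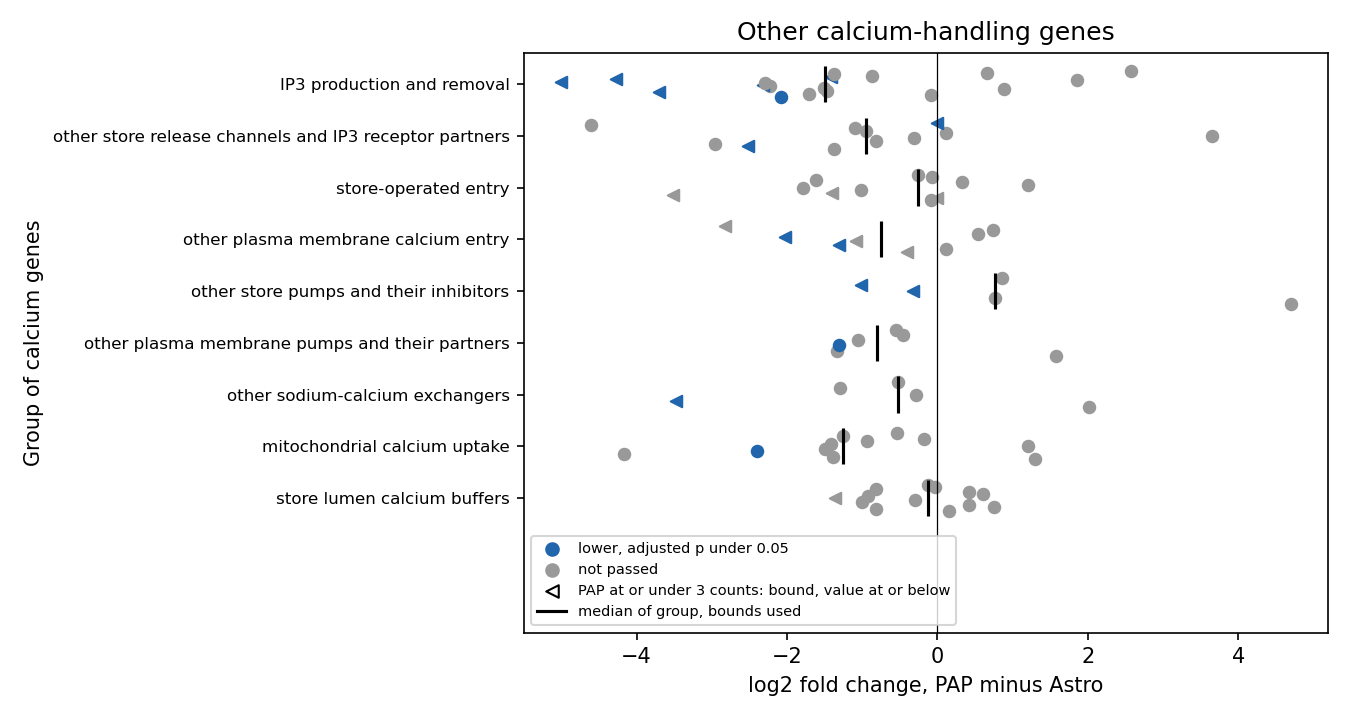
Log2 fold change, PAP minus Astro, of the 88 tested genes of the wider calcium list, by role, with blue for genes that passed the test and grey for the others. Triangles are bounds for genes at or under 3 counts in all PAP libraries, and black bars are group medians with bounds used; the 15 genes that passed were all lower in PAP, 6 of them in IP3 production and removal.

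The genes whose levels over the 6 libraries were most like those of Itpr2, by Pearson's r of log2 CPM among 9973 genes with a mean of at least 10 CPM, were Ap1s3 (r = 0.995), Lmbr1l (r = 0.9947) and Gm28551 (r = 0.9939). The level of Lmbr1l was 4.28 to 5.64 CPM in Astro and 26.4 to 42.8 CPM in PAP. Those most like Atp2a2 were Hsd17b12 (r = 0.9819), Nptn (r = 0.9668) and Cuta (r = 0.9403). Nptn, a known subunit of plasma membrane calcium pumps, was at 122 to 268 CPM in Astro and 123 to 148 CPM in PAP, and it is on the wider calcium list. With 6 libraries, these values describe likeness of pattern and were chosen as the highest among many genes.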

How the data were processed

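RNA of the 6 libraries was pulled down from lysates precleared on bare and immunoglobulin-bearing columns, and 10 ng was amplified with a SMART-Seq v4 kit before Nextera XT library preparation, per the labels' protocols. The deposited values are raw counts per Ensembl gene, whole numbers with different totals per file, per the file headers and values. The submitters' processing notes name mm10, bcl2fastq 2.18.0.12, Trim Galore 0.4.1, STAR 2.5.2b, SAMtools and HTSeq 0.5.3; annotation release and strand setting are not given in the sources used here. The 8 technical replicates per animal and compartment were summed. Symbols, positions and exonic lengths were those of GENCODE M21 (GRCm38), which holds 47224 of the 47643 identifiers.

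PAP was compared with Astro by edgeR 4.0.16 in R 4.3.3 (filterByExpr with a minimum count of 10, TMM factors, quasi-likelihood test, group alone), with Benjamini-Hochberg adjustment over the 14618 genes tested and a threshold of 0.05. DESeq2 1.42.0 and limma 3.58.1 served as alternatives. Deposited counts are given as CPM scaled by TMM factors. Same-numbered libraries come from the same animal, so the block by animal pairs them. The mean correlation of their deviations from the group means was 0.00799, and -0.00399 for different animals. Deviations from a group mean cancel out, so the second value is tied to the first and is no separate baseline. Where no library of a group held more than 3 counts of a gene, its fold is a bound, from the other group's mean and the highest floor of 3 counts.

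The 9 genes and the lists were chosen with earlier results of these data known. Named from the wider list, by a written rule, were the tested gene with the highest mean CPM in each group and each gene past the threshold; the other Orai, Stim2, Atp2a3, Atp2b2 and Ryr2 were named after their values were seen, as relatives of the 9. Some items that the rule or the lists name are not reported here.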

Additional observations from a re-analysis of the deposited data

How the results depend on the processing

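The direction of each of the 8 tested genes was the same in every alternative that could fit it (12 to 19 per gene). The call of Itpr2 held in 11 of 19 and that of Orai1 in 14 of 19; Itpr1 passed in 2 (adjusted p = 0.00345 with DESeq2) and Itpr3 in 1 (0.019 with DESeq2), and the other genes in none. Itpr2 was lost without a filter (log2 fold change 1.93), with limma voom (2.05), after GC and length correction (1.38) and with the replicate block (2.08). That replicate block took members called from 2 to 0 and calcium genes called from 15 to 0, and calls over all genes from 3115 to 133 (128 higher, 5 lower); the replicate block together with GC and length correction gave 0, 0 and 111 (105 higher, 6 lower). Under DESeq2 the calls were 4 members (3 higher), 31 calcium genes (5 higher, 26 lower) and 5141 genes (1685 higher, 3456 lower). An adjusted p under 0.01 left 0 members, 0 calcium genes and 163 genes (152 higher, 11 lower). Requiring a mean of 100 counts left 6 calcium genes and 1414 genes (826 lower), thinning left 8 calcium genes and 1655 genes (961 lower), no filter left 1 member (0 higher) and 571 higher genes, and limma voom and GC and length correction without the block each left 1 member (0 higher).

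Leaving out 1 library at a time gave 115 to 4586 calls over all genes (114 to 1251 higher, 1 to 3335 lower), 0 to 3 members (0 to 2 higher, 0 to 1 lower) and 0 to 22 calcium genes (0 to 1 higher, 0 to 21 lower). Without Astro library 1, 2 or 3, 0 members and 0 calcium genes were called; the cause was not tested. The PAP minus Astro difference in the Itpr1 share of IP3 receptors was 3.08 percentage points and reversed to -4.64 without Astro library 1 and -9.14 without PAP library 2, with a range of -9.14 to 11.6. That of Itpr2 was -8.61 and reversed to 1.02 and 4.35 in the same settings, with a range of -15.1 to 4.35. Scaling by library size alone moved the median of all genes from -0.53 to -0.37, and no other scaling moved it by more than 0.07. In an alternative chosen after seeing the data, each library was left out of the fold bounds of called genes, and only that of Trpc1 moved by over 1.5 times (from 4.08 to 1.98 without Astro library 1). PAP depth limits Atp2b4 and the bounds of Orai1.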
